A study of Homo sapiens with 6 samples.

Results

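Prefoldin is a chaperone complex built from 6 different subunits, encoded in human cells by PFDN1, PFDN2, PFDN4, PFDN5, PFDN6 and VBP1. These 6 genes, of 62700 in the deposited gene table, and their 45 transcripts, of 251955 in the deposited transcript table, are described here in TCam-2, a human cell line derived from a testicular seminoma. The line was sequenced as polyadenylated RNA in 3 groups of 2 libraries: cells that were not transduced (WT), cells transduced with a GFP_FLAG construct (GFP), and cells transduced with an RBMXL3_FLAG construct (RBMXL3). All groups were grown in RPMI 1640 with serum, and the study names WT and GFP as its negative controls for changes in expression and splicing when RBMXL3 is overexpressed. The promoter of the constructs, and whether a transduced group was a pool or a single clone, are not given in the sources used here. RBMXL3 belongs to the RBMX family of RNA-binding proteins. The genes were selected on the share of each PFDN4 transcript in that gene's TPM, an abundance estimate corrected for length, which had been seen to differ between the RBMXL3 and control libraries. The PFDN4 values are therefore a description with no test, and the other 5 subunits were included because they complete the complex.

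In the cell, prefoldin binds actin and tubulin chains as they leave the ribosome and passes them to the TRiC chaperonin, a ring-shaped complex that folds them. The alpha-type subunits, VBP1 (also called PFDN3) and PFDN5, form the core of the jellyfish-like assembly, and the beta-type subunits PFDN1, PFDN2, PFDN4 and PFDN6 complete it. PFDN2 and PFDN6 also sit in a prefoldin-like complex, together with URI1, that works with the R2TP co-chaperone. A transcript whose stop codon lies far enough upstream of its last exon junction can be degraded by nonsense-mediated decay (NMD), which is why annotation gives such transcripts a class of their own.

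In the annotation, PFDN4-201 and PFDN4-202, the transcripts whose estimates differed most between the groups, part at the end of the coding sequence. Reads across that splice were not examined here. PFDN4 lies on the plus strand of chromosome 20 (GRCh38), where GENCODE 29 places PFDN4-201, the protein-coding transcript, at chr20:54207847-54219953. It has 4 exons, 1462 bases and 134 codons. PFDN4-202, annotated as an NMD transcript, spans chr20:54208095-54228052 with 6 exons, 579 bases and 136 codons. Both share 400 coding bases. PFDN4-202 leaves the last exon of PFDN4-201 at position 54219145 and resumes after 5081 spliced-out bases, so that 62 bases separate the end of its stop codon from its last exon junction. The last 30 coding bases of each, stop codon included, are printed with the bases after the point of parting in capitals. The PFDN4-201 sequence is chr20:54219121-54219150. The PFDN4-202 sequence joins chr20:54219127-54219145 to chr20:54224227-54224237.
PFDN4-201: aacataaaccttgaagctgatgaaaGTTAA
PFDN4-202: aaccttgaagctgatgaaaGGAACACATGA
The coding ends differ by 2 bases found only in PFDN4-201 and 8 found only in PFDN4-202. Most of what PFDN4-201 has and PFDN4-202 lacks is untranslated: 803 bases after the stop codon, and 254 bases before the start codon against 6.

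PFDN5, the subunit with the highest transcript abundance, was estimated as a pair of main coding forms in every library, and they are shown for comparison because they differ within the coding sequence. PFDN5 lies on the plus strand of chromosome 12. Each sequence gives the last 15 bases of the first exon, chr12:53295625-53295639, followed in capitals by the first 15 bases of the next exon. That exon starts at chr12:53295839-53295853 in PFDN5-202 and at chr12:53297850-53297864 in PFDN5-203.
PFDN5-202: aaccagctggaccagGAAGTGGAGTTCTTG
PFDN5-203: aaccagctggaccagATGTATGTCCCTGGG
PFDN5-203 thereby lacks 135 coding bases, or 45 codons, of PFDN5-202.

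The libraries differed in depth, in markers of other cell types and in opposite-strand reads, and these differences followed the RBMXL3 group. Whole reads recovered from the gene table summed to 28604436 and 29318007 in the WT pair, 23080795 and 26776703 in the GFP pair, and 17685680 and 21023355 in the RBMXL3 pair. The median absolute log2 difference between the 2 libraries of a group was 0.12 for WT, 0.18 for GFP and 0.08 for RBMXL3, so the GFP pair was the most uneven. RBMXL3 itself had 84 and 68 reads in the RBMXL3 libraries and 0 in the 4 control libraries, where 3 reads would be the limit that a count of 0 allows. The 9 germ cell and seminoma markers were expressed in all libraries, with summed normalised reads of 117690 to 135130. The sum joins markers that moved in opposite directions. POU5F1 was higher in both RBMXL3 libraries (41233 and 40115) than in every control (27460 to 34996). NANOG, PRDM1, KIT, PDPN and LIN28A were lower in both than in every control, with KIT at 1411 and 1429 against 1802 to 2578. SOX17, TFAP2C and ALPL overlapped the controls. The 12 markers of other cell types summed to 573 to 661 in WT, 732 to 786 in GFP and 888 to 955 in RBMXL3, with CYP17A1 and CD3E at 0 and STAR and PTPRC at no more than 1 read. SOX2, SOX9, AMH and COL1A1 were higher in both RBMXL3 libraries than in every control. SOX2 was so only narrowly, at 32.2 and 34.2 normalised reads against 31.3 in WT replicate 1. In whole reads SOX2 had 25 and 32 against 37 there. SOX9 stood at 118 and 115 against 67.1 to 78.4, and COL1A1 at 399 and 407 against 206 to 384. PDGFRB, PECAM1, VWF and KRT5 overlapped the controls. The share of all genes that separate in this way is not given here for either set of markers. Reads of 32 genes that lie opposite a far more abundant partner amounted to 0.291% to 0.468% of the partner's reads in the 4 controls. In the RBMXL3 libraries they amounted to 0.0369% to 0.043%. This share may reflect how strictly strand was kept, which was not tested, and the strand setting of the gene counting is not known here. These are bulk libraries, in which a change in each cell and a change in the mix of cells cannot be told apart. The part of depth, of these markers and of the opposite-strand reads in the results below was not tested. Depth, the sums of other-cell markers and the opposite-strand reads differ along with the RBMXL3 group, so their part cannot be told apart from that of RBMXL3.

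PFDN4-201 made up nearly all PFDN4 transcripts in the controls and a minority in the RBMXL3 libraries, where PFDN4-202 took its place. In TPM, as estimated by Salmon, PFDN4-201 stood at 261 and 245 in the WT pair, 262 and 328 in the GFP pair, and 34.7 and 29.8 in the RBMXL3 pair. PFDN4-202 was listed at 0.333 and 0 in WT, at 0 in both GFP libraries, and at 118 and 136 in RBMXL3. The groups did not overlap for either transcript, and the highest RBMXL3 value of PFDN4-201 was far below the lowest control. PFDN4-202, whose coding end is printed above, held 75.1% and 80.8% of the gene's TPM in the RBMXL3 libraries (mean 78.0% ± 4.03, SD, n = 2). The share of PFDN4-201 there was 22.0% and 17.6%, which is 79.7 percentage points under the mean of either control group. The 3 non-coding PFDN4 transcripts together never passed 2.87% of the gene in any library. Among 89244 transcripts of genes with at least 5 TPM in every library, both the fall of PFDN4-201 and the gain of PFDN4-202 ranked 2, by the smaller of the differences from WT and GFP. On that measure, 16 transcripts fell and 16 gained by 50 points or more. PFDN4 was chosen on these shares, so its ranks and the lack of overlap restate that choice.

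**Figure D1:**
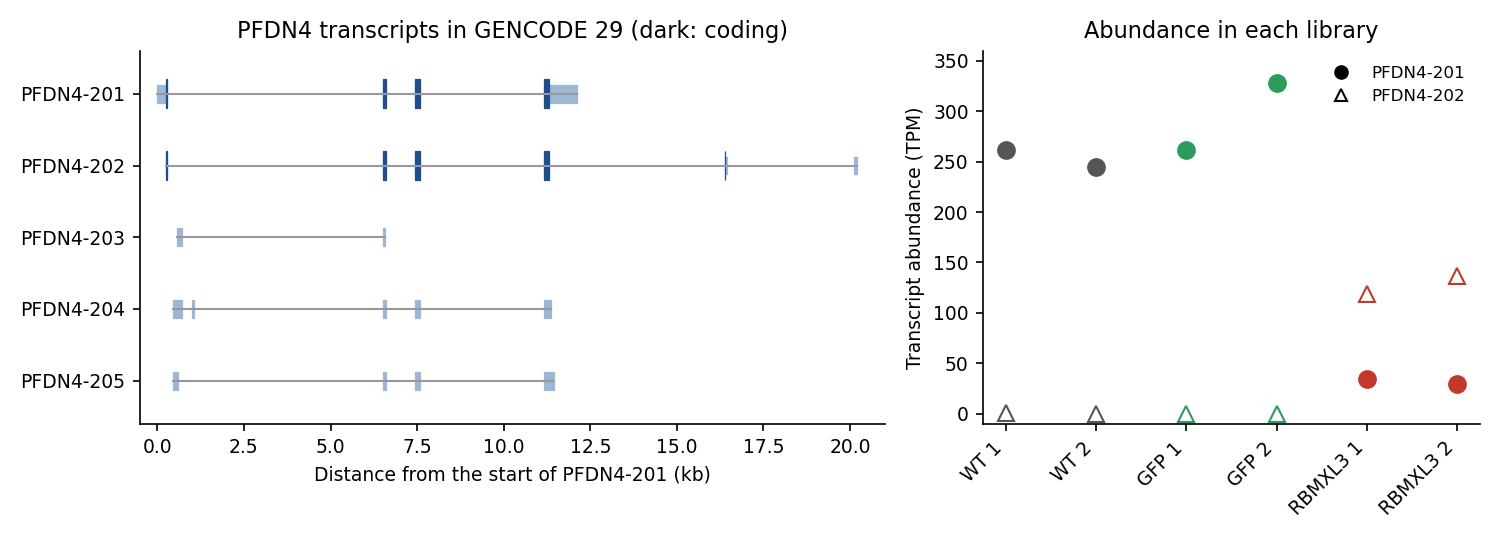
Left, exons of the 5 PFDN4 transcripts drawn to scale in kb from the start of PFDN4-201, with coding parts dark. Right, TPM of PFDN4-201 (circles) and PFDN4-202 (triangles) in each library: PFDN4-201 lies between 245 and 328 in the 4 controls and at 34.7 and 29.8 in RBMXL3, and PFDN4-202 is near 0 in the controls and at 118 and 136 in RBMXL3.

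The total of PFDN4 was lower in RBMXL3 by transcript TPM, and by less in gene reads. Summed over its transcripts, PFDN4 stood at 263 and 245 TPM in the WT pair, 264 and 329 in the GFP pair, and 158 and 169 in the RBMXL3 pair. The RBMXL3 mean was thus 0.642 of the WT mean and 0.551 of the GFP mean, and the RBMXL3 libraries lay below all controls. In normalised gene reads, whole reads divided by a size factor for each library, PFDN4 had 1208 and 1345 in the WT pair, 1147 and 1859 in the GFP pair, and 1145 and 1151 in the RBMXL3 pair. Here the groups overlapped, since GFP replicate 1 lay between the RBMXL3 libraries, and GFP replicate 2 stood apart from all others. The RBMXL3 mean was 0.899 of WT and 0.764 of GFP, or log2 differences of -0.15 and -0.34 (SE 0.17). The value against GFP rested on GFP replicate 2: it was 0.0010 without that library and -0.68 without GFP replicate 1. These values rest on 889 to 1755 reads a library.

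The gene reads and the transcript estimates of PFDN4 did not move in step. A library's reads from a gene should follow the sum of TPM times length over its transcripts, and for PFDN4 that sum, in TPM times kilobases, had a mean of 370 ± 17.6 for WT, 432 ± 67.9 for GFP and 123 ± 1.41 for RBMXL3 (SD, n = 2). Normalised reads divided by this sum, scaled so that the median gene of a library is 1, were 0.200 and 0.244 in the WT pair, 0.178 and 0.226 in the GFP pair, and 0.628 and 0.640 in the RBMXL3 pair. PFDN4 thus had fewer gene-table reads than its transcript estimate calls for in every library, and the gap was widest in the controls. The log2 difference between RBMXL3 and the controls was 1.59, which ranked 7 from the highest among 8915 genes, where 5% lay below -0.16 and 5% above 0.39. It was 1.84 with 200 bases taken off every transcript and 1.42 with PFDN4-201 started at the RefSeq gene start, 240 bases downstream. The sum that divides the reads is built from the transcript values on which PFDN4 was chosen. The log2 difference and its rank are therefore descriptions that are not independent of that choice. The files list PFDN4-201 in a later version than GENCODE 29 does, so the length the submitters used is not known here. For the other subunits, the same difference was 0.01 for PFDN1, -0.12 for PFDN2, 0.34 for PFDN5, -0.12 for PFDN6 and 0.31 for VBP1.

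**Figure D2:**
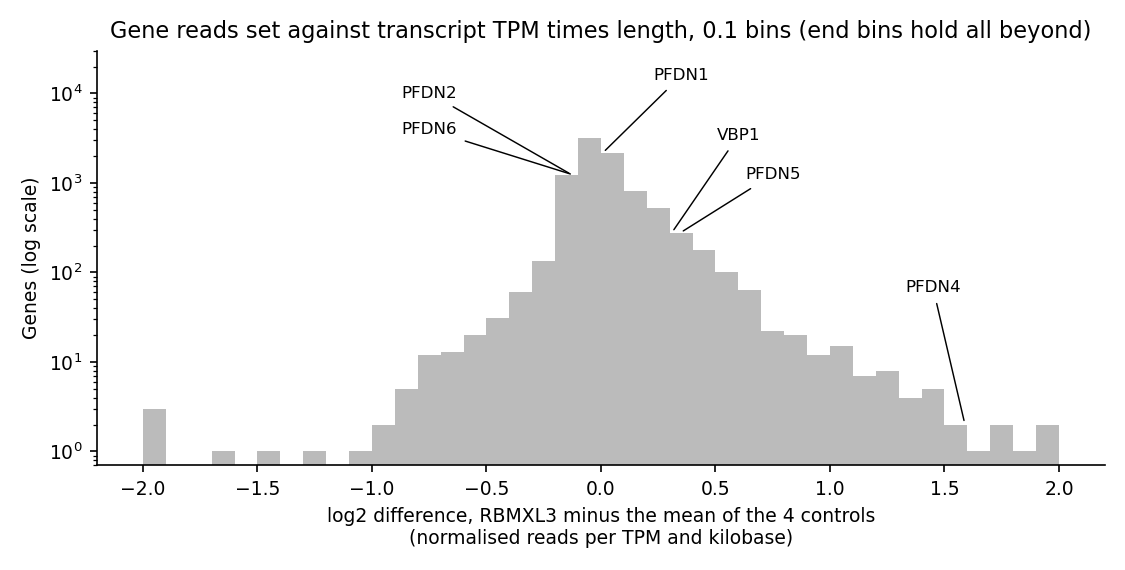
Number of genes (log scale) by the log2 difference, RBMXL3 minus controls, in normalised reads per TPM and kilobase, in bins of 0.1 with everything beyond the axis in the end bins. PFDN4 lies at 1.59 in the upper tail, while PFDN5 and VBP1 lie at 0.34 and 0.31 and the others between -0.12 and 0.01.

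PFDN5, an alpha-type subunit also known for binding MYC, had the highest summed TPM of the complex and by far the fewest gene reads. Its summed TPM was 322 and 370 in the WT pair, 451 and 451 in the GFP pair, and 364 and 344 in the RBMXL3 pair, so that both GFP libraries lay above the other 4. In the gene table it had 54.2 and 85.6 normalised reads in the WT pair, 56.4 and 61.4 in the GFP pair, and 77.2 and 54.5 in the RBMXL3 pair, from only 51 to 102 whole reads. Its normalised reads per TPM and kilobase were 0.0132 to 0.0269 of the median gene, the rank 20 from the lowest of 8915 genes. The gene-read value of PFDN5 therefore covers a small part of what the transcript table assigns to it, and how the reads were assigned to genes is not given in the sources used here.

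Across the complex, mean summed TPM over the 6 libraries ran from PFDN5 at 384 through PFDN4 at 238, PFDN2 at 203, PFDN6 at 109 and PFDN1 at 90.3 to VBP1 at 79.5. The ranges over the libraries were PFDN5 322 to 451, PFDN4 158 to 329, PFDN2 187 to 245, PFDN6 99.1 to 126, PFDN1 71.5 to 122 and VBP1 69.7 to 85.1. PFDN2 and PFDN6 did not overlap, and each of the other neighbours in this order did, PFDN5 and PFDN4 through GFP replicate 2. Within each library, PFDN5 was above PFDN4. PFDN4 was above PFDN2 in every control library and below it in both RBMXL3 libraries (158 and 169 against 202 and 194 TPM).

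**Figure D3:**
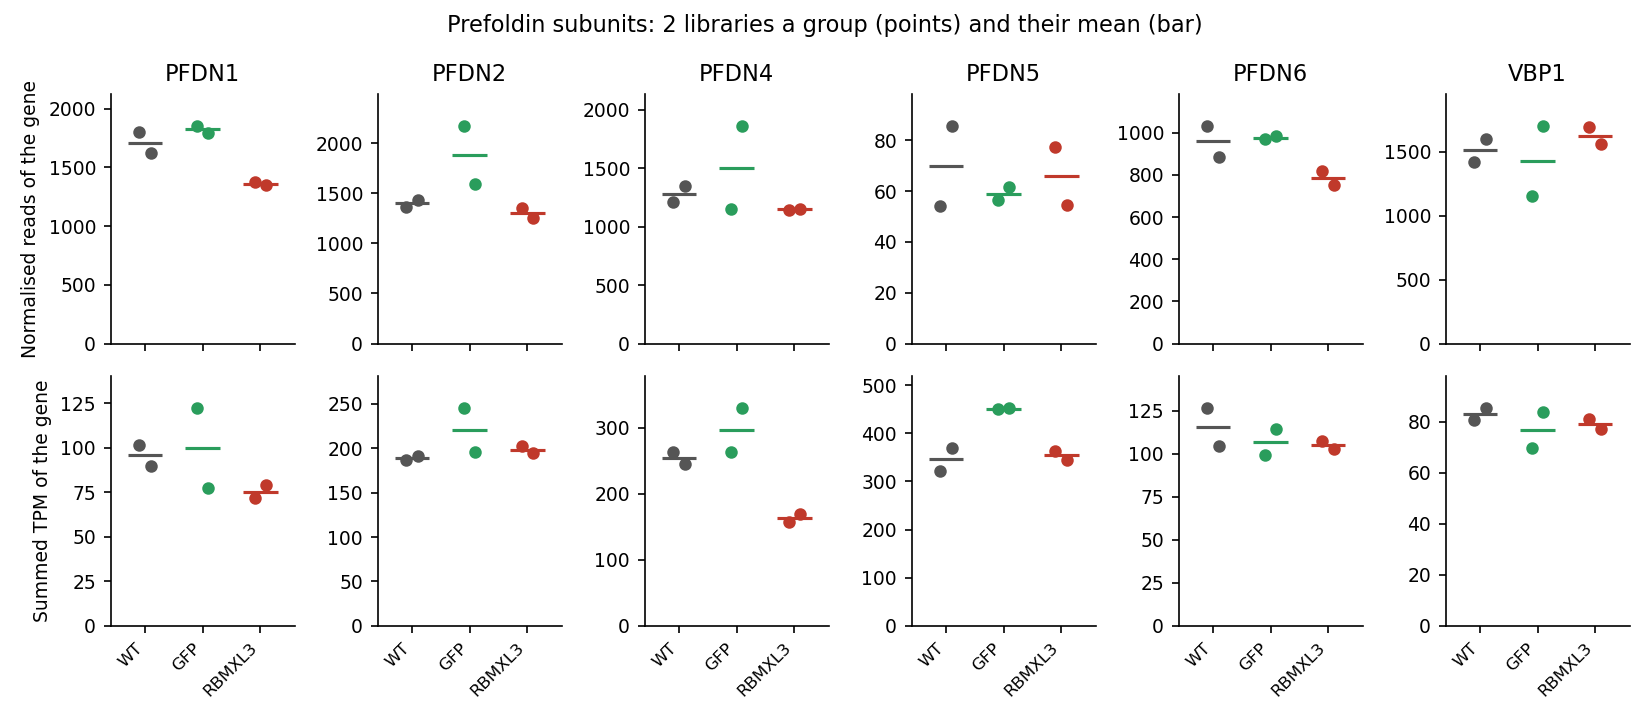
Normalised gene reads (top) and summed TPM (bottom) of the 6 subunits, with a point for each library and a bar at the group mean, each panel with its own axis from 0. PFDN4 in RBMXL3 is below all controls in TPM (158 and 169) but overlaps GFP in gene reads, and PFDN1 is below all controls in gene reads.

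Among the beta-type subunits, PFDN1 had lower gene reads in RBMXL3 than in either control, and PFDN2 than in GFP. PFDN1 had 1803 and 1619 normalised reads in the WT pair, 1852 and 1796 in the GFP pair, and 1374 and 1351 in the RBMXL3 pair, with no overlap. Its log2 change was -0.41 (SE 0.099) against GFP and -0.32 (SE 0.099) against WT, with limma adjusted p of 0.0121 and 0.0272. PFDN2 had 1367 and 1433 in the WT pair, 2169 and 1594 in the GFP pair, and 1353 and 1249 in the RBMXL3 pair, where both were below every control but close to WT. It fell by 0.51 on the log2 scale (SE 0.13) against GFP, with a limma adjusted p of 0.0171, and the change against WT, -0.10, did not pass (limma adjusted p 0.574). GFP replicate 1 was the high library: the PFDN2 change against GFP was -0.29 without it and -0.73 without GFP replicate 2. The calls in PFDN1 and PFDN2 ended when either RBMXL3 library was left out, that of PFDN1 against WT also without WT replicate 1, and in summed TPM, where PFDN1 was -0.37 against GFP and -0.34 against WT and PFDN2 -0.14 against GFP. Without the filter on low values, PFDN2 against GFP and PFDN1 against WT were no longer called (limma adjusted p 0.113 and 0.0615).

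PFDN6, the third of the beta-type subunits tested, had 1031 and 887 normalised reads in the WT pair, 971 and 982 in the GFP pair, and 818 and 753 in the RBMXL3 pair. Both RBMXL3 libraries were below all controls, yet the log2 changes of -0.31 against GFP and -0.28 against WT (SE 0.11) did not pass, at limma adjusted p of 0.0655 and 0.0746. In the fits without a GFP library, the WT comparison passed, at limma adjusted p of 0.0292. RGL2 and WDR46 overlap 24.5% and 7.65% of the PFDN6 exon bases on the opposite strand, and whether the gene counting kept strands apart is not given in the sources used here. PFDN1 and PFDN2 overlap opposite-strand genes over 1.81% and 3.84% of their exon bases, and PFDN4 over none.

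The alpha-type subunits did not pass the test. VBP1, which binds the von Hippel-Lindau protein, had 1420 and 1602 normalised reads in the WT pair, 1156 and 1702 in the GFP pair, and 1693 and 1560.2 in the RBMXL3 pair. The GFP pair spanned all the other libraries. Its log2 change against GFP was 0.21 (SE 0.15, limma adjusted p 0.344), which became 0.48 without GFP replicate 2 (limma adjusted p 0.00398) and -0.07 without GFP replicate 1. Against WT it was 0.11 (limma adjusted p 0.619). PFDN5 changed by 0.11 and -0.05 (SE 0.20, limma adjusted p 0.742 and 0.859).

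Counted together, 2 of the 5 subunits beside PFDN4 fell against GFP, where 20.9% of the 14292 genes tested were called (10.5% higher and 10.4% lower). Against WT 1 of the 5 fell, where 29.9% of genes were called (14.6% higher and 15.3% lower). Between the controls, GFP against WT, limma called 0 of the 5, with 1 at an unadjusted p under 0.05 (PFDN2), as did edgeR and DESeq2, and 3.67% of all genes were called. In summed TPM, limma called 0 of the 5 in each comparison, with 1, 0 and 1 at an unadjusted p under 0.05 against GFP, against WT and between the controls, where 6.93%, 11.5% and 0.0% of genes were called. All 6 subunits passed the filter on low values. The labels do not say that the libraries of a group came from separate cultures, so the p-values measure the spread between these libraries, which may be technical.

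Outside PFDN4, no change in the transcript make-up of a subunit passed the test between RBMXL3 and a control. This held for both comparisons of PFDN1, PFDN2, PFDN5 and PFDN6, with adjusted Simes p from limma diffSplice between 0.152 and 0.817, where 12.0% of 8882 genes were called against either control. VBP1 had fewer than 2 transcripts above the filter. PFDN2-201 held 97.0% to 99.1% of its gene and VBP1-201 95.6% to 100.0%. PFDN5-202 held 65.7% to 74.8% and PFDN5-203, the form without the 45 codons, 19.0% to 23.9%. The 4 NMD transcripts of PFDN5 together held 2.06% to 3.98% in the controls and 5.60% and 5.01% in RBMXL3. No test of this sum, and no share of all genes with such a split, is given here. No single PFDN5 transcript passed the test.

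In PFDN1 and PFDN6, single libraries stood apart in their transcript make-up. PFDN1-202, a retained-intron transcript, had 52.5 TPM and 43.0% of the gene in GFP replicate 1 and was listed at 0 in the other 5 libraries. PFDN1-207 held 19.8% and 17.2% in WT, 0 in both GFP libraries, and 0 and 9.78% in RBMXL3. PFDN1-201, the main coding transcript, ranged from 52.4% in GFP replicate 1 to 94.2% in GFP replicate 2. The usage of PFDN1 differed between GFP and WT (limma diffSplice, adjusted Simes p 0.0473, where 1.72% of genes were called), but not when the shares themselves were tested (limma adjusted p 0.473). Both tests held PFDN1-201, PFDN1-203 and PFDN1-207, and PFDN1-202 did not pass their filter. No single PFDN1 transcript was called between GFP and WT, the lowest limma diffSplice adjusted p being 0.0675 for PFDN1-207. PFDN1-203 held 3.95% to 7.62%. PFDN6-202 led its gene at 50.3% to 75.9%, with its lowest share in GFP replicate 2, where PFDN6-203 reached 30.6% against 2.11% to 10.0% elsewhere. PFDN6-201 held 6.18% to 7.71% in the controls and 9.78% and 16.4% in RBMXL3, PFDN6-204 6.29% to 10.1% and PFDN6-205 4.13% to 7.49% over all libraries. Of the 45 transcripts, 15 reached 5% of their gene in a library and 9 were listed at 0 in all.

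**Figure D4:**
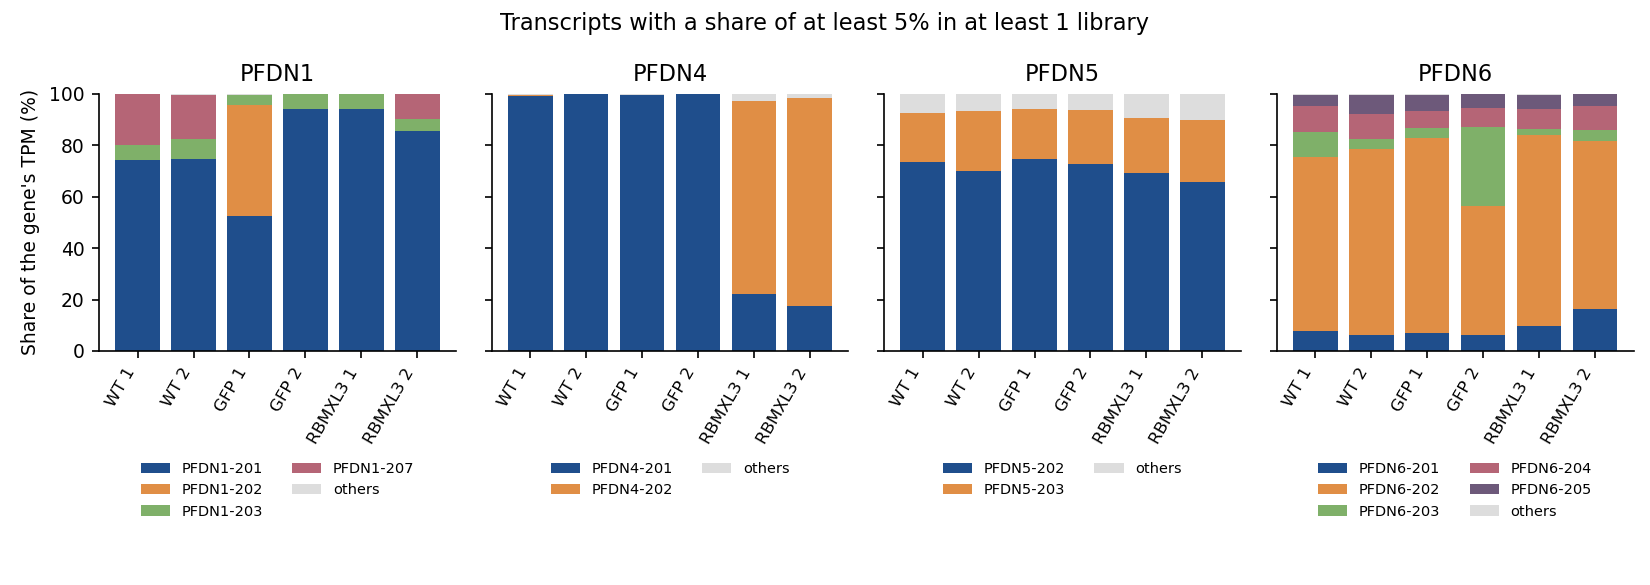
Share of each gene's TPM (%) held by its transcripts in each library, for the 4 subunits with more than 1 transcript at 5% or above in a library. PFDN4-202 fills 75.1% and 80.8% of PFDN4 in the RBMXL3 libraries, PFDN1-202 appears in GFP replicate 1 only, and the PFDN5 pair stays between 65.7% and 74.8% and between 19.0% and 23.9%.

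Of the 9 genes of the TRiC chaperonin, which receives its clients from prefoldin, 5 fell in RBMXL3 against both controls, where 6.86% of genes did. In each comparison, 6 fell and 3 were not called. Those that fell against GFP, where 10.4% of all genes did, were CCT2, CCT3, CCT5, CCT6A, CCT7 and CCT8. Those that fell against WT, where 15.3% of all genes did, were TCP1, CCT2, CCT5, CCT6A, CCT7 and CCT8. The median log2 change was -0.39 against GFP and -0.47 against WT, beside 0.00 and -0.01 over all genes. The 2 comparisons share the RBMXL3 libraries. This list and those below were chosen with earlier results of these data known, and the shares of all genes are not matched for abundance. CCT8 had 19832 and 19803 normalised reads in the WT pair, 18555 and 21787 in the GFP pair, and 13669 and 13042 in the RBMXL3 pair, with no overlap. Its log2 change was -0.59 against GFP (SE 0.11, limma adjusted p 0.00357) and -0.57 against WT (limma adjusted p 0.00274). CCT7 changed by -0.68 and -0.47. The values of the 9 genes ran from -0.68 to 0.10 against GFP and from -0.57 to 0.09 against WT, and CCT6B, with under 50 normalised reads in each library, was the highest in both. Between GFP and WT limma called 0 of 9, with 0 at an unadjusted p under 0.05, 0 called by edgeR and 0 by DESeq2.

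The TRiC counts depended on the table and on single libraries. In summed TPM limma called 0 of 9 in either comparison, with 3 against GFP and 5 against WT at an unadjusted p under 0.05, and medians of -0.13 against GFP and -0.23 against WT, where the median of all genes was 0.13 and 0.03. Without RBMXL3 replicate 1 the counts were 2 against GFP and 1 against WT, without RBMXL3 replicate 2 they were 1 and 0, and without WT replicate 1 the count against WT was 1. After quantile normalization they were 3 and 6, with medians of -0.18 and -0.30, and without the filter on low values 1 and 3.

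The actin and tubulin genes, whose products are the clients of the pathway, were 13 in number, of which 12 were tested. Against GFP 7 fell, where 10.4% of all genes did, with a median of -0.46. Against WT 3 fell and 1 rose, TUBB2B, where 15.3% of all genes fell and 14.6% rose, with a median of -0.23, so the count against WT was near that of all genes. After quantile normalization 4 and 2 fell and TUBB2B was not called, with medians of -0.17 and -0.036. TUBA1A and TUBB2A fell against both controls, by 0.65 and 0.48 against GFP and by 0.53 and 0.45 against WT on the log2 scale. TUBA1A had 21397 and 19967 normalised reads in the WT pair, 24894 and 20249 in the GFP pair, and 14218 and 14370 in the RBMXL3 pair. Its groups did not overlap between RBMXL3 and the controls. In summed TPM limma called 0 of 12 in either comparison, with 1 against GFP and 4 against WT at an unadjusted p under 0.05. The calls ended without the filter on low values. Without either RBMXL3 library the fallen genes were 1 against GFP and 0 against WT, and without WT replicate 1 they were 0 against WT. Without WT replicate 2, 1 fell against WT, and without either GFP library, 8 did. Without GFP replicate 1 the median against GFP was -0.28. TUBA1A, TUBA1B and TUBA1C are close paralogs, as are TUBB2A and TUBB2B, so reads may be split uncertainly between them.

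In the prefoldin-like and R2TP list, 3 of 9 genes fell and 1 rose against GFP, and 2 fell and 1 rose against WT. Over all genes, 10.4% fell and 10.5% rose against GFP, and 15.3% fell and 14.6% rose against WT, so the count against WT was near that of all genes. The gene that rose against GFP was DNAAF10 (limma adjusted p 0.0394), which was not called after quantile normalization, in summed TPM, by edgeR or DESeq2, or without GFP replicate 1 or either WT library. In summed TPM 1 gene fell against each control. Without either GFP library, 3 fell and 2 rose against WT. URI1, the scaffold that shares PFDN2 and PFDN6 with prefoldin, fell by 0.37 and 0.44 on the log2 scale, and RUVBL1, an ATPase of R2TP, by 0.49 and 0.43. The medians of the list were -0.13 and -0.05. The calls of this list ended without either RBMXL3 library, those against GFP also without the filter on low values and those against WT also without WT replicate 1. Of the phosducin-like cofactors, which bind TRiC, PDCL3 fell by 0.56 against each control and the other 2 tested were not called. Without RBMXL3 replicate 2 and in summed TPM, PDCL3 was not called against GFP, and without GFP replicate 2 another of the 3 rose against GFP. Limma called 0 of the 7 tubulin folding cofactors tested in either RBMXL3 comparison, with 0 at an unadjusted p under 0.05 and 0 by edgeR or DESeq2, and their values ran from -0.24 to 0.22 against GFP and from -0.22 to 0.15 against WT. Without GFP replicate 2, 1 of these cofactors rose and 2 fell against GFP.

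**Figure D5:**
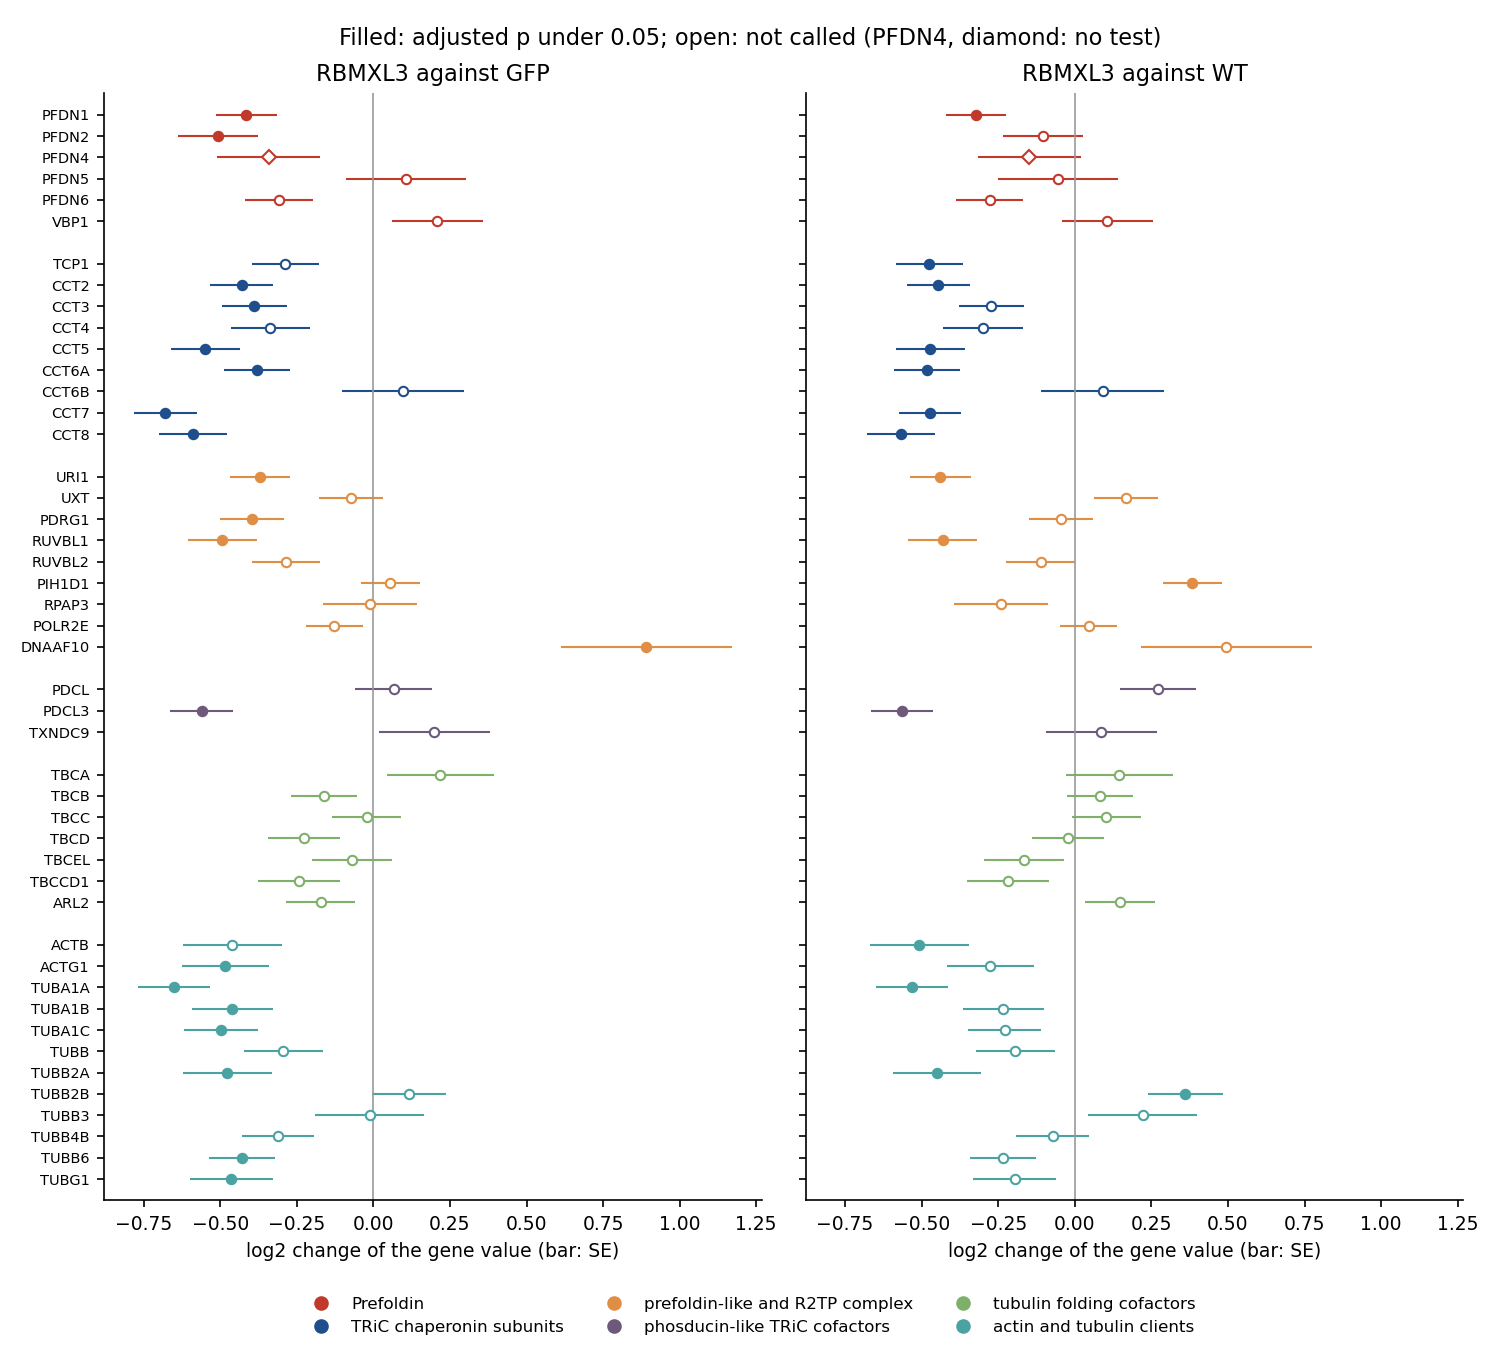
Log2 change of gene values with its SE for the 6 prefoldin subunits and the genes of the 5 lists, RBMXL3 against GFP (left) and against WT (right), on a shared axis. Filled points passed an adjusted p of 0.05 and PFDN4 carries no test: TRiC genes lie from -0.68 to 0.10 and from -0.57 to 0.09, and the tubulin folding cofactors hold no filled point.

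The transcripts whose 6 shares lay closest to those of PFDN4-201 were ZCRB1-201, COX6C-206 and SET-205, with root mean square differences of 8.45, 8.74 and 13.5 percentage points over the 6 libraries. ZCRB1-201 held 88.9% to 91.3% of its gene in the controls and 24.5% and 26.2% in RBMXL3. Closest to PFDN4-202 were CYCS-202, CEP57-202 and COX6C-207, at 5.91, 8.84 and 12.5 points. CYCS-202 held 0.37% to 9.70% in the controls and 83.7% and 83.1% in RBMXL3. The log2 difference in normalised reads per TPM and kilobase, 1.59 for PFDN4, was smaller but also positive for these genes. It was 0.79 for ZCRB1, 0.31 for SET, 0.24 for CEP57, 0.13 for CYCS and 0.06 for COX6C. ZCRB1 ranked 80 from the highest of 8915 genes, above the 0.39 that 5% of genes exceeded, and PFDN4 ranked 7. SET ranked 675, CEP57 1011, CYCS 1774 and COX6C 2678. These genes and PFDN4 were picked on transcript shares, which enter this measure. By gene reads, the 3 genes closest to PFDN4 were NIT2, ENSG00000290484 and HMGB1P6, with root mean square differences of 0.024, 0.037 and 0.077 on the centred log2 scale. Like PFDN4, all 3 were highest in GFP replicate 2. NIT2 had 867 normalised reads there and 539 to 649 in the other 5 libraries.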

How the data were processed

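Per the submitters' processing notes, Trim Galore 0.6.10, STAR 2.7.11a, DESeq2 and Salmon 1.10.2 were used with GRCh38 (hg38). The annotation release, the gene counter and its strand setting are not given in the sources used here. The deposited gene table holds a normalised signal: dividing each library by the worth of 1 read gave whole reads for 100.0% of 145320 nonzero values (tolerance 0.01 reads). The deposited transcript table holds Salmon TPM, which keeps no depth. Each column of both tables belonged to a sample of the series.

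Gene values were divided by a common factor of 23.9, since the planned test assumed values in CPM, and tested with limma 3.58.1 (R 4.3.3) on log2(value + 1) with an intensity trend over all 6 libraries. Fold changes are on that scale and understate those of low genes. Genes at 1 or more in at least 2 libraries were kept (14292), and calls needed a Benjamini-Hochberg adjusted p under 0.05. Transcript usage was tested with limma diffSplice on log2(TPM + 1). Transcripts were assigned to genes by ID without version in GENCODE 29, which held 80.0% of them with 94.7% to 95.1% of TPM. Reads per TPM and kilobase used GENCODE lengths and genes with at least 20 normalised reads and 5 TPM. Printed sequences were read from the GENCODE 29 transcript sequences, and their GRCh38 positions from the exons of that annotation. Protein sequences were not used here. The fits were also run on simulated data with an assumed spread, which need not match that of these libraries, and no result here rests on that run. Alternatives were other pseudocounts, filters and scalings, summed TPM, edgeR 4.0.16 and DESeq2 1.42.0 on the recovered reads, a replicate block, and leaving out each library.

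The members and lists were chosen with earlier results of these data known. All members were named, with every transcript at 5% or more of its gene in a library. In each list, up to 2 rises and 2 falls called against both controls were named, by the smaller absolute change, and the TRiC genes by range. Genes most like PFDN4 were the 3 nearest by root mean square difference. Genes named beyond that, among them TUBB2B, DNAAF10, CCT6B, TCP1 and CCT3, were named after their values were seen.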

Additional observations from a re-analysis of the deposited data

How the results depend on the processing

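The difference of -79.7 points in the PFDN4-201 share ran from -81.9 to -77.6 with a library left out. Its direction was the same in every alternative run (transcripts counted, a pseudocount of 1 TPM, each library left out). PFDN4 was chosen for this share and its groups lie far apart, so these runs could not have turned the direction. Counts of called genes moved. Against GFP, limma called 2986 genes, 950 without the filter and 988 in summed TPM, and 658 to 4313 with a library left out. Against WT, 4271 were called, 2327 without the filter and 1638 in summed TPM, and 1428 to 6163 with a library left out. For GFP against WT, 524 were called, 0 without the filter, 327 after quantile normalization and 0 in summed TPM, and 0 to 2780 with a library left out. On the recovered reads, edgeR called 2848, 4157 and 474 genes and DESeq2 2497, 3587 and 695, in the same order. Of the 5 subunits beside PFDN4, limma called 2 against GFP, 1 without the filter and 0 in summed TPM, and 0 to 3 with a library left out. Against WT it called 1, 0 without the filter and 0 in summed TPM, and 0 to 2 with a library left out. Between the controls it called 0, and 0 to 2 with a library left out. Called transcript usage numbered 1069 genes against GFP, 654 with a mean of at least 5 TPM and 61 by shares, and 547 to 1520 with a library left out. Against WT it was 1066, then 638 and 88, and 470 to 1302. For GFP against WT it was 153, then 287 with a pseudocount of 0.1, 15 with the mean filter and 1 by shares, and 102 to 359. A fit with a group of 1 library assumes that it varies like the others. The cause of these changes was not tested.

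Signs turned for PFDN4, which carries no test, and for subunits that did not pass in the fit reported. In gene reads, PFDN4 ran from -0.68 to 0.0010 against GFP and from -0.15 to 0.54 between the controls with each library left out, its extremes being the fits without GFP replicate 1 and 2. In summed TPM, PFDN5 was -0.35 against GFP, 0.036 against WT and 0.39 between the controls. PFDN2 was 0.066 and VBP1 -0.066 against WT, and PFDN6 was -0.11 between the controls. With each library left out in turn, PFDN5 ran from -0.078 to 0.29 against GFP, from -0.30 to 0.19 against WT and from -0.40 to 0.084 between the controls. Likewise, VBP1 ran from -0.065 to 0.48 against GFP and from -0.38 to 0.17 between the controls, its extremes being the fits without GFP replicate 1 and 2. PFDN6 ran from -0.077 to 0.14 between the controls.

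The replicate numbers of the labels were not shown to pair the libraries: the deviations of same-numbered libraries correlated at -0.156 for WT and GFP, 0.0337 for WT and RBMXL3, and -0.0941 for GFP and RBMXL3 over 14292 genes. With the number as a block, 2386 genes were called against GFP, 3697 against WT and 191 between the controls, and the subunit calls numbered 2, 1 and 0. Crossing the numbers of WT and GFP, an alternative chosen after seeing the data like the 2 other transcript lengths for PFDN4, gave 1059 genes and 1 subunit between the controls. Depth limits PFDN5 most, at 51 to 102 reads a library, while TPM carries no depth.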
